A study of Mus musculus with 27 samples.

Results

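The genes examined here were 32 genes that carry glucose into the cell, break it down to pyruvate, turn pyruvate into lactate or pass it to the mitochondrion, out of 37991 genes in the deposited profiles. They were chosen by name from textbook knowledge of the pathway, with earlier results of these data known. All 32 were found in every profile, 30 under the symbol of the annotation and 2 (Mpc1 and Mpc2) under an older symbol. The profiles came from calvaria, the skull vault, of neonatal C57BL/6J-Col3.6 CFP mice aged 5 to 9 days, whose cells carry cyan fluorescent protein under a fragment of the collagen type I promoter. Cells of digestions 2 to 4 were grown for 4 days, sorted for the fluorescent protein and returned to culture with ascorbic acid and 4 mM beta-glycerol phosphate, and RNA was taken on every second day from day 2 to day 18. All time points share this strain, this sort and this medium, so that the day of culture is the factor that differs between them. The promoter fragment marks pre-osteoblasts at the sort and does not show what the cells became in the following days.

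Each of the 9 time points has 3 profiles, which carry 1 barcode and differ in the sequencing lane. They were therefore counted as 1 library per time point, and the SD over 3 profiles given below covers sequencing and quantification only. With 1 library per day, the day and any batch that runs along with it cannot be told apart. The summed counts per time point ranged from 22470195 on day 10 to 62009157 on day 12, at which 3 counts correspond to 0.134 and 0.0484 CPM (counts scaled to the total of the library), and 21.4% to 25.7% of the counts lay in the ribosomal RNA of the mitochondrion. Among 9 osteoblast markers, Runx2, Col1a1, Col1a2, Sparc, Ibsp and Bglap rose over the days, whereas Sp7, Spp1 and Alpl did not pass the test of a straight line. These 3 did pass the spline described below (edgeR adjusted p = 1.2e-05, 0.000365 and 0.00765). Sp7 was at 32.3, 5.18 and 10.6 TPM on days 2, 4 and 18. On days 2, 6 and 18 Spp1 was at 402, 1012 and 532 TPM and Alpl at 9.13, 0.47 and 17.6 TPM. Levels are given as TPM, RSEM's share of each gene among all transcripts scaled to a fixed total, which divide by the length of the transcript, after scaling each profile to the same upper quartile.

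Glycolysis splits glucose into pyruvate in the cytosol. Its preparatory phase spends ATP to make triose phosphates, and its payoff phase recovers ATP and NADH from them. Pyruvate is then reduced to lactate, which restores NAD+, or enters the mitochondrion, where the pyruvate dehydrogenase complex turns it into acetyl-CoA. Osteoblasts are known to take up much glucose and to release much of it as lactate even when oxygen is present, and collagen synthesis and mineral deposition both draw on that energy.

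In the early part of the culture, days 2 to 10, 5 of the 7 genes of the payoff phase fell (Gapdh, Pgk1, Pgam1, Eno1 and Pkm2), against 14.6% of all genes. Of the genes that handle pyruvate or lactate or control the use of pyruvate, Ldhb, Slc16a1, Pdk1 and Pdk2 rose. Ldha and Dlat of that group fell, and Slc16a3, Pdk4, Pdha1, Pdhb, Mpc1 and Mpc2 did not pass. On days 2, 4, 6, 8 and 10 the summed level of all 32 genes was 7023, 5767, 5331, 4128 and 3014 TPM. From day 12 to day 18 it stayed between 3100.2 and 3199 TPM. The sum thus reached its lowest value on day 10 and did not return to the level of the first days. In these bulk samples fewer cells of a type and less RNA per cell cannot be told apart.

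**Figure D1:**
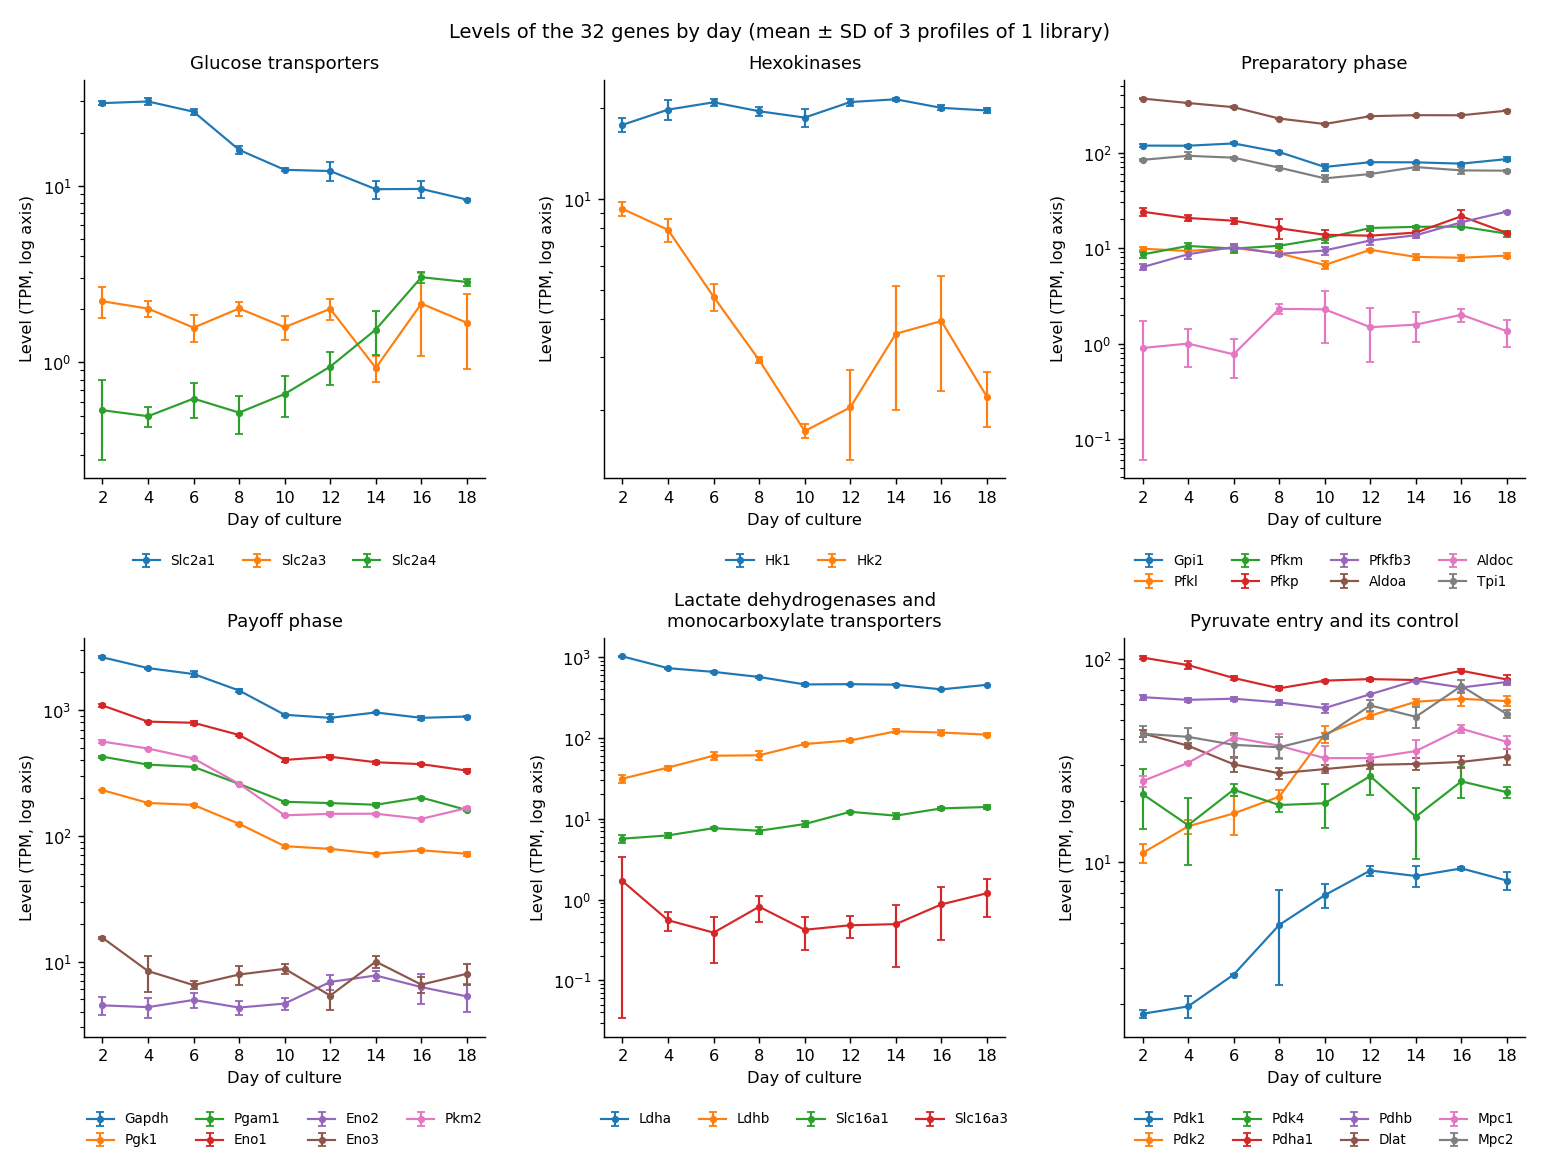
Level of each of the 32 genes (TPM scaled to a common upper quartile, log axis) against the day of culture, in 6 panels by role. Points are means and bars the SD of 3 profiles of 1 library, cut short where they would reach 0. Gapdh, Pgk1, Pgam1, Eno1, Pkm2 and Ldha decline until day 10 and then level off, whereas Ldhb, Slc16a1, Pdk1 and Pdk2 climb.

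A straight line in day was fitted to the summed estimated counts of 15659 genes by edgeR's quasi-likelihood test, and a gene was called at a Benjamini-Hochberg adjusted p under 0.05. The change is the fitted log2 difference between day 2 and day 18. Of all genes tested, 54.3% were called, 28.3% as rising and 26.1% as falling, with a median change of 0.05. Of the 32 genes, all of which were tested, 9 (28.1%) rose, 12 (37.5%) fell and 11 did not pass, with a median change of -0.40. The share that rose was thus near that of all genes and the share that fell was above it, and no test was made of either difference. A natural spline of 3 degrees of freedom, which also finds a rise and fall within the series, called 59.1% of all genes and 23 (71.9%) of the 32. The spline alone called Pfkp, Pdha1 and Dlat, the line alone called Slc2a3, and neither called Hk1, Pfkl, Aldoc, Eno3, Slc16a3, Pdk4, Pdhb and Mpc1. In 12 of the 32 genes the level on each of days 2 to 6 was above that on each of days 14 to 18, as in 25.6% of all genes tested, and in 11 it was below, as in 32.4%.

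Markers of other cell types moved with the day as well. The summed level of 7 adipocyte markers stayed at 3.21 to 7.54 TPM until day 8 and reached 20.0 TPM on day 10 and 478 TPM at the end, and all 6 that were tested rose. The summed level of 7 monocyte and macrophage markers was 24.1, 190.5 and 2014 TPM on days 2, 10 and 18, and 6 of the 7 rose. The summed level of 9 cell division genes was highest on day 6 at 502 TPM and lowest on day 18 at 150.5 TPM, and all 9 fell. The 10 skeletal muscle markers summed to no more than 15.0 TPM on any day, with the muscle creatine kinase Ckm at 0 counts throughout, which on the shallowest day allows up to 0.134 CPM. Of the 5 muscle markers that were tested 2 rose, the myosin heavy chains Myh1 and Myh8 (log2 changes 6.38 and 4.25, edgeR adjusted p = 0.00052 and 0.0126), and 1 fell, the actin Acta1 (-5.91, edgeR adjusted p = 0.000157). The part of these cell types in the changes of the 32 genes was not tested.

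**Figure D2:**
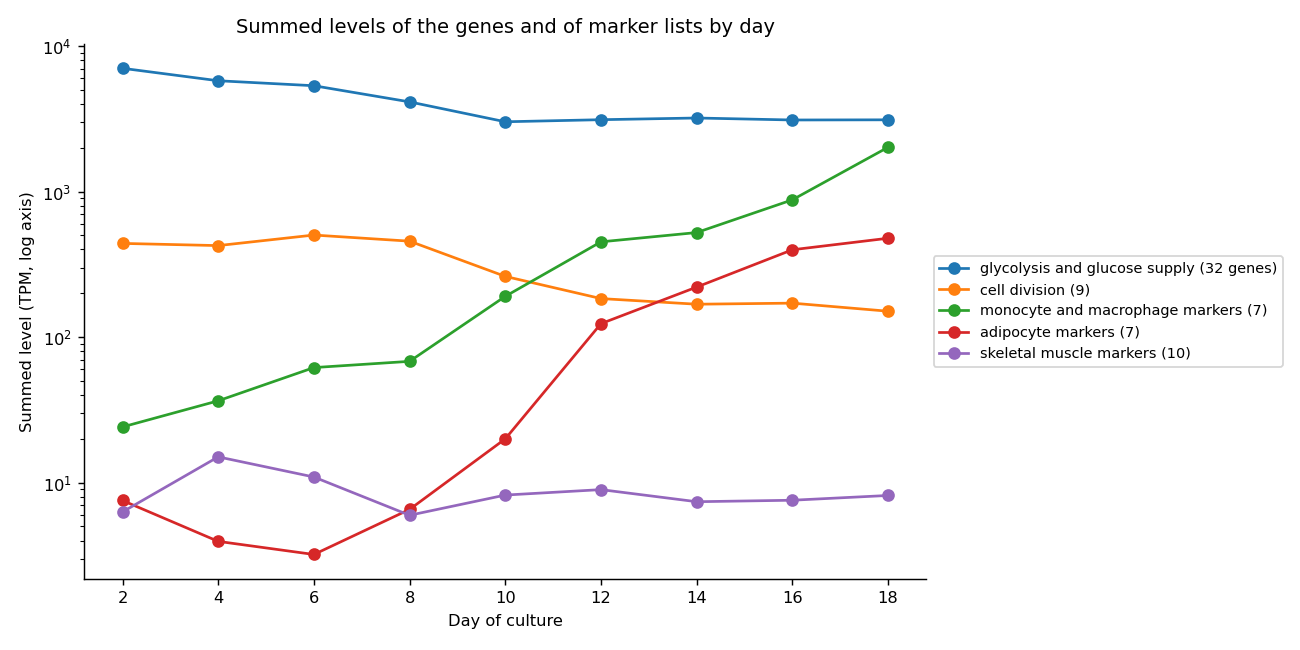
Summed level (TPM, log axis) of the 32 glycolysis and glucose supply genes and of 4 lists of marker genes against the day of culture, 1 library per day. From day 2 to day 10 the sum of the 32 genes falls from 7023 to 3014 TPM and that of the cell division genes from 440 to 261 TPM. In the same span the adipocyte markers go from 7.54 to 20.0 TPM and the monocyte and macrophage markers from 24.1 to 190.5 TPM.

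Because the adipocyte markers lay at 20.0 TPM or below until day 10, the line was also fitted to days 2 to 10 alone. That choice was made after the markers had been seen, and their sum had already risen from 3.21 TPM on day 6. Over these 5 libraries 14.6% of 15213 genes were called as falling and 16.8% as rising by edgeR. Of the 32 genes 13 fell and 4 rose, with a median change from day 2 to day 10 of -0.43, against 0.05 for all genes. The 13 that fell were Slc2a1, Hk2, Gpi1, Pfkp, Aldoa, Tpi1, Gapdh, Pgk1, Pgam1, Eno1, Pkm2, Ldha and Dlat. The 4 that rose were Ldhb, Slc16a1, Pdk1 and Pdk2. The cell division genes had their own decline partly in this span, with 502 TPM on day 6 and 261 by day 10, and the monocyte and macrophage markers were already at 190.5 TPM at its end.

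**Figure D3:**
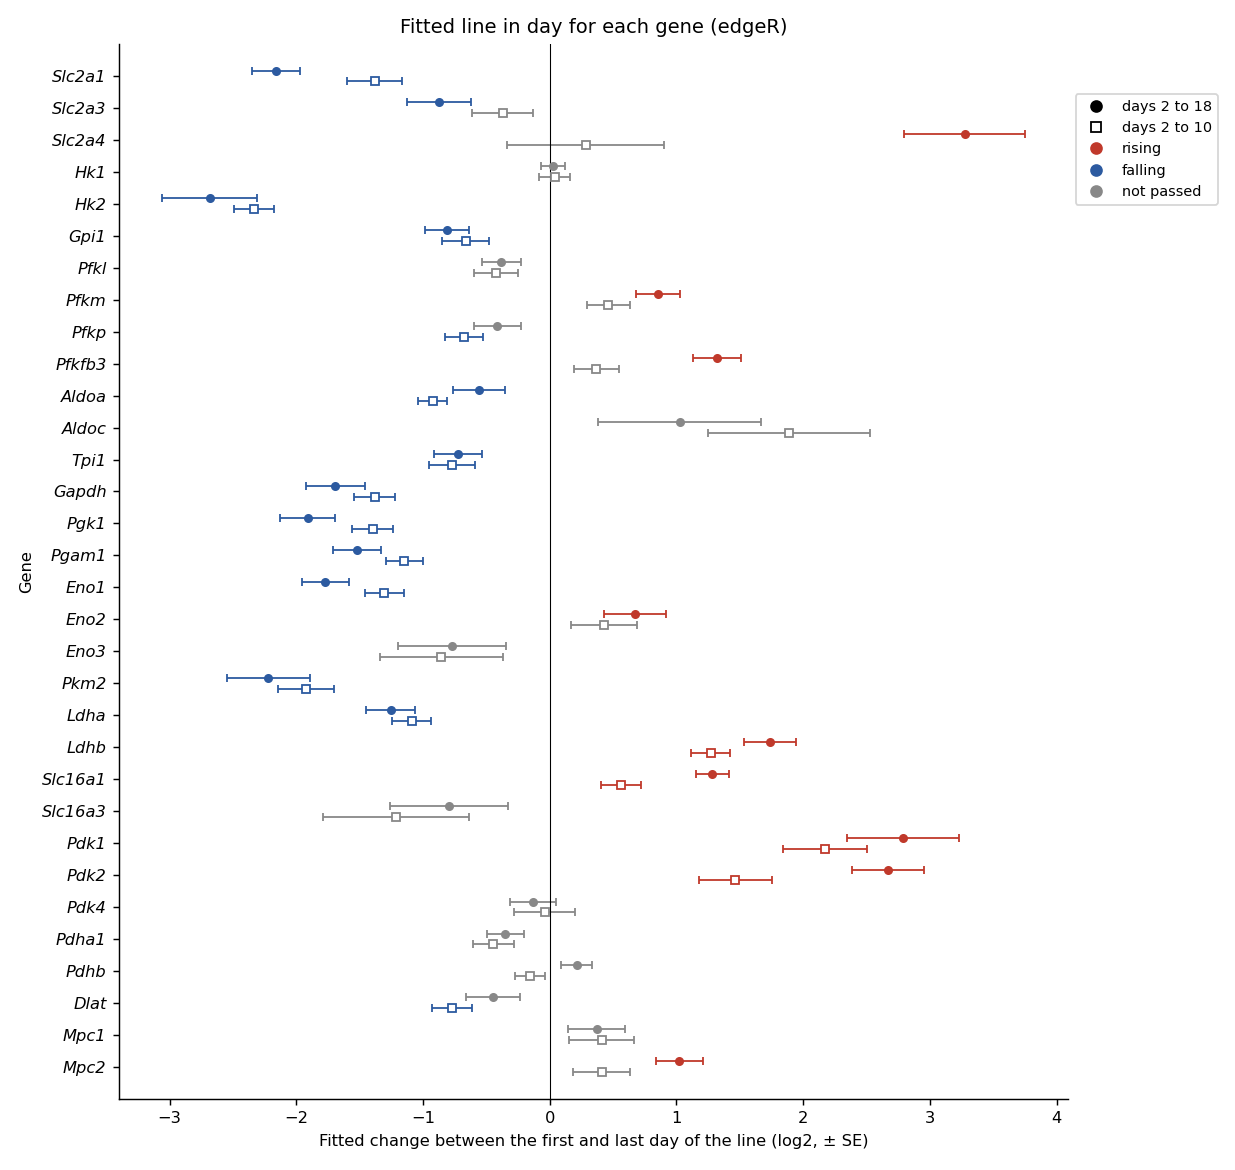
Fitted log2 change of each gene with its standard error, from day 2 to day 18 (filled circles, 9 libraries) and from day 2 to day 10 (open squares, 5 libraries). Blue marks genes called as falling, red those called as rising and grey those that did not pass; Slc2a4, Pfkm, Pfkfb3, Eno2 and Mpc2 are called as rising over the whole series but not over days 2 to 10.

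The stretch of 250 bases upstream of an annotated start is shown for 6 genes that moved together or apart, as a guide to the core of the hypoxia response element, ACGTG or GCGTG on either strand, to which hypoxia-inducible factors bind. ACGTG also lies within the E-box CACGTG, the site of the Myc and Usf families. The sequences are those of RefSeq on GRCm38.p6, run 5′ to 3′ on the strand of the gene, and carry each match in capitals, with overlapping matches counted as 1 stretch. Of the 32 genes 30 had an entry, and the first start listed is shown where there are several. Pgk1, Ldha, Slc2a1 and Hk2 were picked from the genes that fell.
Pgk1 (chrX:106186850-106187099, plus strand): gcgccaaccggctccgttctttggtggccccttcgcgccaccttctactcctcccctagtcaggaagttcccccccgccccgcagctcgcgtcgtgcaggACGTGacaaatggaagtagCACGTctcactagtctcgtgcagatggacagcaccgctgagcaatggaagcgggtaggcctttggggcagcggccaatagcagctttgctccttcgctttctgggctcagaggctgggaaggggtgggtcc
Ldha (chr7:46845554-46845803, plus strand): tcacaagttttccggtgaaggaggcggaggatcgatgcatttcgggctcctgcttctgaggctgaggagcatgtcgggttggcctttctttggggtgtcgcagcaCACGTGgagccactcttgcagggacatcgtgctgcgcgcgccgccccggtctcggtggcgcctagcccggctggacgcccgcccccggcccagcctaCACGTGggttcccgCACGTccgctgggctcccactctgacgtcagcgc
Slc2a1 (chr4:119108495-119108744, plus strand): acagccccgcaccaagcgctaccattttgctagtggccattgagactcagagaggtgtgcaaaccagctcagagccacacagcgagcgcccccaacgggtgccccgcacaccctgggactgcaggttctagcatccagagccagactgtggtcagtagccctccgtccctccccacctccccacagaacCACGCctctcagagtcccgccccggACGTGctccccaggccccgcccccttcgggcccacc
Hk2 (chr6:82774455-82774704, minus strand): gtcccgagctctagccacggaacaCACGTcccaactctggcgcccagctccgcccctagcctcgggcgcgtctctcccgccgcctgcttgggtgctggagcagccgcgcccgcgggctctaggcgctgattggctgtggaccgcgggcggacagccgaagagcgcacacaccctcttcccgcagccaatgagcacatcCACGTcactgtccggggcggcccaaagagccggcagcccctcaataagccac
Pdk1 and Ldhb were picked from the genes that rose.
Pdk1 (chr2:71872974-71873223, plus strand): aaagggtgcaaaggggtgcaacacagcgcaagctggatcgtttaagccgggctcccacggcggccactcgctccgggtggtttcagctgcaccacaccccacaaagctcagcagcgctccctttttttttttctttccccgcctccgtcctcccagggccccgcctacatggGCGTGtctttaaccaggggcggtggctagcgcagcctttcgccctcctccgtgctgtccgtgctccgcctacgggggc
Ldhb (chr6:142507958-142508207, minus strand): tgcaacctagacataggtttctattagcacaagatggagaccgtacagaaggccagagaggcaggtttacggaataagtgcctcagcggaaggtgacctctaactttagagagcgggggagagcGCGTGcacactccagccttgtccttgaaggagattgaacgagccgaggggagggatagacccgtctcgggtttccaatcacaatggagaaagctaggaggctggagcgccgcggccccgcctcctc
Ldha held 3 such stretches, 2 of them a whole E-box, while Pgk1, Slc2a1 and Hk2 held 2 each and Pdk1 and Ldhb 1 each. These 6 genes do not represent all that fell or rose. Among genes not shown, the most in 1 window was 3 for Slc16a1, which rose, and for Pgam1, which fell. It was 1 for Pdk2 and Mpc2, which rose, and for Aldoa and Pkm2, which fell. At least 1 upstream window held the core in 26 of the 30 genes (86.7%), against 59.7% of 10292 tested genes with an entry and 41.5% of all 27025 genes. Counted by window, it stood in 34 of 45 windows of these genes (75.6%) and in 53.6% of the windows of tested genes. Among genes with an entry it was found in 7 of 8 that rose, 9 of 11 that fell and 10 of 11 that did not pass, so that its presence did not separate the directions. The whole E-box CACGTG stood in 4 of 8 that rose, 1 of 11 that fell (Ldha) and 0 of 11 that did not pass, against 9.74% of tested genes, and no test was made of these counts. Gpi1, Tpi1, Eno2 and Dlat held no such letters in these windows. The matches describe the letters of the window and no binding was measured.

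Among the glucose transporters, Slc2a1 fell and Slc2a4 rose. Slc2a1 encodes GLUT1, the transporter of basal glucose uptake. Its level was 29.3, 29.98 and 26.2 TPM on days 2, 4 and 6, 16.0, 12.3 and 12.1 TPM on days 8, 10 and 12, and 9.55, 9.59 and 8.34 TPM on days 14, 16 and 18. The first 3 days lay above all later days, and the gene fell by 2.16 on the log2 scale (SE 0.19, adjusted p = 2.65e-05, edgeR). Slc2a4 encodes GLUT4, the transporter that insulin brings to the surface of muscle and fat cells. Its level was between 0.50 and 0.66 TPM on days 2 to 10, and 0.95, 1.53, 3.03 and 2.85 TPM on days 12, 14, 16 and 18. The line gave a log2 change of 3.27 (SE 0.48, edgeR adjusted p = 0.000319) on 15 to 199 counts per day. Over days 2 to 10 alone the change of Slc2a4 was 0.28 (SE 0.62), with an edgeR adjusted p of 0.759. From day 10 to day 18 the adipocyte markers went from 20.0 to 478 TPM and the monocyte and macrophage markers from 190.5 to 2014 TPM. The osteoblast marker Bglap went from 1.88 to 208 TPM in that span. The part of any cell type in the rise of Slc2a4 was not tested.

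Slc2a3, the gene of the high-affinity transporter GLUT3, is less clear. Its level ran from a low of 0.93 TPM (day 14) to a high of 2.22 TPM (day 2) without a steady course, and the SD over 3 profiles reached 49.5% of the mean. Its summed counts came to 6.61 and 3.64 CPM on the first and the last day, and the line on counts called a fall of 0.88 on the log2 scale (SE 0.25, edgeR adjusted p = 0.0133). TPM and counts thus gave different pictures for Slc2a3, and the spline did not call it (edgeR adjusted p = 0.0629). The log2 change of Slc2a3 was -0.06 when it was pooled with the 41 genes that share a stretch of 50 bases, which held 99.7% of the pooled counts. Together these genes shared 1.24% of the stretches of Slc2a3, so that the pooled value describes mostly the other genes. Of the summed level of the 3 transporters, Slc2a1 made up 91.4%, 84.6% and 64.8% on days 2, 10 and 18.

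The hexokinases trap glucose in the cell as glucose 6-phosphate. Hk1, the widely expressed form, was the steadiest of the 32 genes, with 17.6, 18.6 and 19.6 TPM on days 2, 10 and 18 and a range of 17.6 to 21.3 TPM. Its log2 change was 0.02 (SE 0.09, edgeR adjusted p = 0.843). Hk2, the form that insulin and hypoxia-inducible factor are known to induce, declined over days 2, 4, 6, 8 and 10 with 9.26, 7.89, 4.74, 2.93 and 1.70 TPM. On days 12 to 18 it was at 2.04, 3.58, 3.94 and 2.21 TPM, where the SD over 3 profiles was up to 1.63 TPM. Every day from day 6 on was below the first 2, and Hk2 fell by 2.68 on the log2 scale (SE 0.38, edgeR adjusted p = 0.00025). Over days 2 to 10 alone it fell by 2.34 (SE 0.16, edgeR adjusted p = 0.000347). Hk2 made up 34.5% of the summed hexokinase level on day 2 and 8.41% on day 10.

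In the preparatory phase the changes were smaller. Of its 8 genes 3 (37.5%) fell, 2 (25%) rose and 3 did not pass the line. Of all genes tested 26.1% fell and 28.3% rose, and no test was made of the differences. Gpi1 encodes glucose 6-phosphate isomerase, and was at 118 to 125 TPM up to day 6, at 70.7 TPM on day 10 and at 85.5 TPM at the end. Aldoa, the main aldolase, was at 368, 199 and 275 TPM on days 2, 10 and 18. Tpi1, the triose phosphate isomerase, was at 83.9, 53.7 and 64.6 TPM on the same days. All 3 were lowest on day 10 and partly recovered, and their lines gave falls of 0.81, 0.56 and 0.72 on the log2 scale (SE 0.17, 0.21 and 0.19). The edgeR adjusted p was 0.00273 for Gpi1, 0.0403 for Aldoa and 0.00881 for Tpi1. The call of Aldoa was lost when day 2, 4, 6, 12, 14 or 16 was left out, with a change of -0.33 without day 2, while over days 2 to 10 alone it fell by 0.93 (SE 0.11, edgeR adjusted p = 0.00188).

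Phosphofructokinase, the committed step of glycolysis, has a liver, a muscle and a platelet subunit. Pfkp, the platelet form, was at 24.0 and 13.8 TPM on days 2 and 10, and Pfkl, the liver form, at 9.84 and 6.65 TPM on these days. Neither passed the line over all days (edgeR adjusted p = 0.0839 and 0.0585), though Pfkp passed the spline (edgeR adjusted p = 0.00155). Pfkm, the muscle form, was at 8.57 to 10.6 TPM on days 2 to 8 and at 12.7 to 16.8 TPM afterwards. The levels up to day 8 and after it did not overlap, and Pfkm rose by 0.86 on the log2 scale (SE 0.17, edgeR adjusted p = 0.002). Its share of the 3 subunits was 20.2% on day 2 and 42.5% on day 14. Of the 5 skeletal muscle markers tested, the myosins Myh1 and Myh8 rose, Acta1 fell and 2 did not pass. All 10 muscle markers summed to 6.29, 8.21 and 7.39 TPM on days 2, 10 and 14. The part of muscle cells in the rise of Pfkm was not tested.

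Pfkfb3 makes fructose 2,6-bisphosphate, the strongest activator of phosphofructokinase. On days 2 to 10 its level was 6.31, 8.61, 10.3, 8.69 and 9.43 TPM, and on days 12 to 18 it was 12.0, 13.6, 18.6 and 24.1 TPM. Pfkfb3 rose by 1.32 on the log2 scale (SE 0.19, edgeR adjusted p = 0.000293), and it was highest on the last day, when the adipocyte and macrophage markers were highest too. Over days 2 to 10 alone its change was 0.37 (SE 0.18, edgeR adjusted p = 0.153). The part of any cell type in the rise of Pfkfb3 was not tested. Aldoc, the aldolase of brain, was counted 16 to 87 times per day and reached no more than 2.31 TPM, with a log2 change of 1.03 (SE 0.64, edgeR adjusted p = 0.202).

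The payoff phase carried most of the decline. Its 7 genes summed to 4976, 1753 and 1636 TPM on days 2, 10 and 18, and 5 of them fell, against 26.1% of all genes tested. Gapdh, glyceraldehyde 3-phosphate dehydrogenase, is often used as a reference gene in bone cells. It was at 2640.5, 2167, 1944, 1436 and 921 TPM on days 2 to 10 and between 871 and 961 TPM from day 12 on. The level on day 2 was 2.96 times that on day 18, and Gapdh fell by 1.69 on the log2 scale (SE 0.23, edgeR adjusted p = 0.000239). Hk1, in contrast, varied by a factor of 1.22 between its lowest and highest day.

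Pgk1, phosphoglycerate kinase, makes the first ATP of the payoff phase. Over days 2 to 10 it was at 231, 183, 176, 125 and 82.9 TPM, and afterwards between 72.1 and 78.8 TPM. Its levels thus declined until day 10 and changed little later, and it fell by 1.91 on the log2 scale (SE 0.22, edgeR adjusted p = 9.11e-05). Pgam1, phosphoglycerate mutase, was at 427, 187 and 161 TPM on days 2, 10 and 18, and fell by 1.52 (SE 0.19, edgeR adjusted p = 0.000149). Eno1, the widely expressed enolase, was at 1093, 403 and 331 TPM on these days, and fell by 1.77 (SE 0.19, edgeR adjusted p = 6.48e-05).

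Pkm2 here names the whole pyruvate kinase gene, which yields the M1 and M2 forms by splicing, and the gene counts do not separate them. Its level was 564, 496, 414, 259 and 146 TPM on days 2, 4, 6, 8 and 10 and 137 to 167 TPM from day 12 to day 18. The level on day 2 was 3.86 times that on day 10, the largest such ratio of the 7 genes, and the line gave a fall of 2.22 on the log2 scale (SE 0.33, edgeR adjusted p = 0.000333).

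The other enolases were at low levels. Eno2, the enolase of neurons, was at 4.30 to 4.95 TPM on days 2 to 10 and at 5.28 to 7.74 TPM afterwards, and was called as rising with a log2 change of 0.67 (SE 0.25, edgeR adjusted p = 0.0399). That call was lost when replicate 2 or day 2, 4, 8, 10, 12, 14 or 16 was left out, with changes of 0.52 without the replicate and 0.49 without day 2. Eno3, the enolase of muscle, was at 15.5 TPM on day 2 and at 5.36 to 9.99 TPM on all later days. Its log2 change of -0.77 (SE 0.42, edgeR adjusted p = 0.149) became 0.09 without day 2. Eno1 made up 95.6% to 98.6% of the summed enolase level on every day.

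Reads of Gapdh are shared with copies of the gene. Of the counts assigned to Gapdh and to 48 near copies, which share at least 5% of its stretches of 50 bases, 47.5% lay in the copies, between 44.8% and 54.9% on the single days. The pseudogene Gm12671 (NCBIM37, chr4:91518179-91519431) held 228992 counts and Gm10359 (chr5:106291585-106292764) 64442.5, against 337635 for Gapdh itself on chr6:125111871-125116485. The family as a whole was at 3172, 1117 and 1214 CPM on days 2, 10 and 18. Pooled with its copies, Gapdh still fell, by 1.51 on the log2 scale (SE 0.26, edgeR adjusted p = 0.000801). The fall is thus present in both measures, while the level of Gapdh itself depends on how the shared reads were divided. For the other 31 genes near copies held at most 0.20% of the counts over all days.

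**Figure D4:**
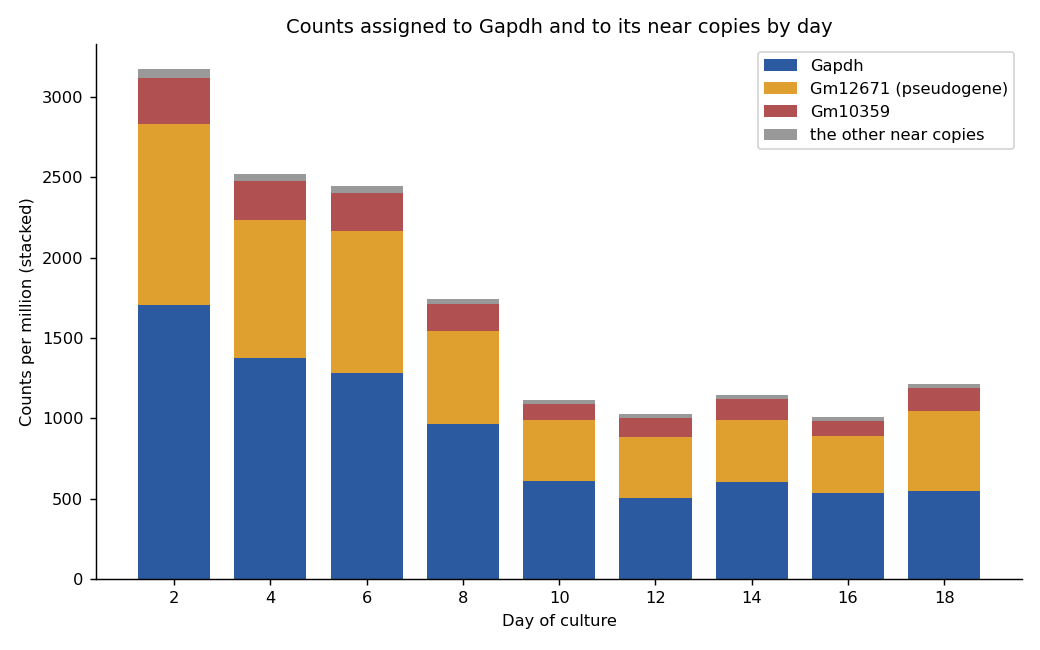
Counts (CPM) assigned to Gapdh, to Gm12671, to Gm10359 and to the other near copies, stacked, against the day of culture. The family stands at 3172 CPM on day 2 and at 1214 on day 18, and the copies hold 44.8% to 54.9% of it on each day.

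At the step from pyruvate to lactate the subunits moved in opposite directions. Ldha encodes the subunit that favours the making of lactate, and its level was 1019.7, 729, 656, 568 and 459 TPM on days 2, 4, 6, 8 and 10 and 398 to 462 TPM afterwards. Ldha fell by 1.26 on the log2 scale (SE 0.20, edgeR adjusted p = 0.000447). Pooled with the 97 genes that share at least 1 stretch of 50 bases with it, which held 87.8% of the pooled counts, the log2 change of Ldha was -0.35 (SE 0.12, edgeR adjusted p = 0.0294). Together these genes shared 7.02% of the stretches of Ldha, and none of them was a near copy. The pooled value thus describes mostly the other genes. Ldhb, which encodes the subunit of heart that favours the use of lactate, was at 31.3, 43.0, 60.2, 60.9 and 84.0 TPM on these 5 days and at 93.1, 120.5, 116.6 and 109.6 TPM on days 12 to 18. Every day after day 2 was above it, and Ldhb rose by 1.74 (SE 0.20, edgeR adjusted p = 0.0001). Ldha nevertheless stayed the main subunit on every day.

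Lactate crosses the membrane through monocarboxylate transporters. Slc16a1, the gene of MCT1, was at 5.66, 8.58 and 14.0 TPM on days 2, 10 and 18, and rose by 1.28 on the log2 scale (SE 0.13, edgeR adjusted p = 5.68e-05). Slc16a3, the gene of MCT4, which exports lactate from glycolytic cells, was counted 12 to 52 times per day. It lay between 0.39 and 1.69 TPM, and the log2 change of Slc16a3 was -0.80 and did not pass (SE 0.47, edgeR adjusted p = 0.173). Among the alternatives run it passed only with the 27 profiles as samples and a replicate block (-0.83, edgeR adjusted p = 0.0232), and was -0.19 without day 2.

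Pyruvate enters the mitochondrion through a carrier of 2 subunits. Mpc2 was at 36.6 to 42.7 TPM on days 2 to 10 and at 51.7 to 73.4 TPM afterwards, and rose by 1.02 on the log2 scale (SE 0.18, edgeR adjusted p = 0.00105). Mpc1 ranged from 24.9 to 45.2 TPM, and its change of 0.37 did not pass (SE 0.22, edgeR adjusted p = 0.185). Of the pyruvate dehydrogenase complex, Pdha1 and Pdhb encode the subunits of the first enzyme and Dlat the second. Pdha1 was at 101 TPM on day 2 and 71.4 to 92.9 TPM later, and Dlat at 42.9 TPM on day 2 and 27.3 to 37.3 TPM later. Both were highest on day 2 and passed the spline (edgeR adjusted p = 0.00551 and 0.000126) but not the line (0.0625 and 0.0971). Pdhb stayed between 57.1 and 78.0 TPM and passed neither.

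Of the 4 kinases that switch this complex off, Pdk1 and Pdk2 rose, Pdk3 fell and Pdk4 did not pass. Pdk3, which is not among the 32 genes, was at 33.7 TPM on the first day and 27.6 TPM on the last (log2 change -0.50, SE 0.15, edgeR adjusted p = 0.0179). Pdk1, which hypoxia-inducible factor is known to induce, was at 1.78, 1.94, 2.78, 4.88 and 6.84 TPM on days 2 to 10 and at 9.05, 8.504, 9.27 and 8.08 TPM on days 12 to 18. Its 3 first days lay below all later ones, and Pdk1 rose by 2.79 on the log2 scale (SE 0.44, edgeR adjusted p = 0.000481). Pdk2, the kinase found in most tissues, was at 11.0, 14.9, 17.3, 20.9 and 42.4 TPM on days 2 to 10 and at 52.4, 61.3, 63.4 and 61.8 TPM on days 12 to 18. Pdk2 rose by 2.67 (SE 0.28, edgeR adjusted p = 6.82e-05), with the largest step between days 8 and 10. Pdk4, the kinase of fasting and of glucocorticoid action, ran between 15.1 and 26.4 TPM with no trend (log2 change -0.13, SE 0.18, edgeR adjusted p = 0.56).

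Of 5 genes known to answer to hypoxia-inducible factor, Pdk1 rose and Slc2a1, Pgk1, Hk2 and Ldha fell. Outside glycolysis, 10 (45.5%) of 22 tested hypoxia-inducible factors and targets rose, 4 (18.2%) fell and 8 did not pass the line over all days. Of all genes tested 28.3% rose and 26.1% fell. The part of the factor in the changes of these genes was not tested. Over days 2 to 10 alone Pdk1 rose by 2.17 (SE 0.33, edgeR adjusted p = 0.00426) and Pdk2 by 1.47 (SE 0.29, edgeR adjusted p = 0.011), in days when the summed adipocyte markers went from 7.54 to 20.0 TPM and the monocyte and macrophage markers from 24.1 to 190.5 TPM.

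The balance between isozymes was followed as the share of 1 gene in the summed TPM of its group, which does not depend on the scaling of the library. Of 8 shares, 5 were correlated with day over the 9 time points after adjustment over the 8 (two-sided exact permutation tests of Spearman's rho). Ldhb made up 2.98%, 8.41%, 15.5%, 20.9% and 19.5% of lactate dehydrogenase on days 2, 6, 10, 14 and 18, with a maximum of 22.6% on day 16. Its rho with day was 0.95 (exact permutation p = 0.000353, adjusted 0.00282) and Pearson's r 0.96 (exact permutation p = 0.000138, adjusted 0.000551). Without the 2 days farthest from the middle, day 2 and day 18, r was 0.99 (exact permutation p = 0.000397).

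The share of Slc2a1 among the 3 transporters fell with a rho of -0.93 (exact permutation p = 0.00075, adjusted 0.003) and an r of -0.94 (exact permutation p = 8.82e-05, adjusted 0.000551), and r was -0.93 without the outer days (exact permutation p = 0.000794). Outside these 3, Slc2a10 was at 7.22 and 7.81 TPM and Slc2a8 at 2.82 and 5.67 TPM on days 2 and 18. Pdk3, which was left out of the group of kinases, was at 33.7 TPM on day 2, above Pdk4 at 21.5 TPM. The share of Pdk4 among Pdk1, Pdk2 and Pdk4 was 62.7%, 28.3% and 23.9% on days 2, 10 and 18, while the levels of Pdk1 and Pdk2 rose. Its rho was -0.92 (exact permutation p = 0.00131, adjusted 0.0035) and its r -0.92 (exact permutation p = 0.000689, adjusted 0.00184), with -0.90 without the outer days (exact permutation p = 0.00952). The share of Eno1 had a rho of -0.87 (exact permutation p = 0.00451, adjusted 0.00902) and an r of -0.86 (exact permutation p = 0.00446, adjusted 0.00796), and r was -0.86 without the outer days (exact permutation p = 0.0175). The share of Pfkm had a rho of 0.80 (exact permutation p = 0.0138, adjusted 0.0221) and an r of 0.86 (exact permutation p = 0.00498, adjusted 0.00796), with 0.83 without the outer days (exact permutation p = 0.0306). The call of the Pfkm share was lost when day 2, 4, 6 or 8 or replicate 3 was left out, with a rho of 0.71 at the lowest.

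The share of Hk2 gave a rho of -0.60 that did not pass (exact permutation p = 0.0968, adjusted 0.129), and it was lowest on day 10 and stood at 16.5% on day 16. In counts Hk2 was at 6.01 CPM on day 10 and 4.59 CPM on day 16, so that TPM and counts differed in direction between these days. Its r of -0.74 (exact permutation p = 0.0199, adjusted 0.0265) rested on the outer days, without which r was -0.55 (exact permutation p = 0.2). The shares of Aldoc (rho 0.48) and Slc16a3 (rho -0.48) did not pass either (exact permutation p = 0.194 for both, adjusted 0.194). The group of Slc16a3 left out Slc16a7. Consecutive days of a culture are not independent of each other, and these permutations treat them as exchangeable.

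**Figure D5:**
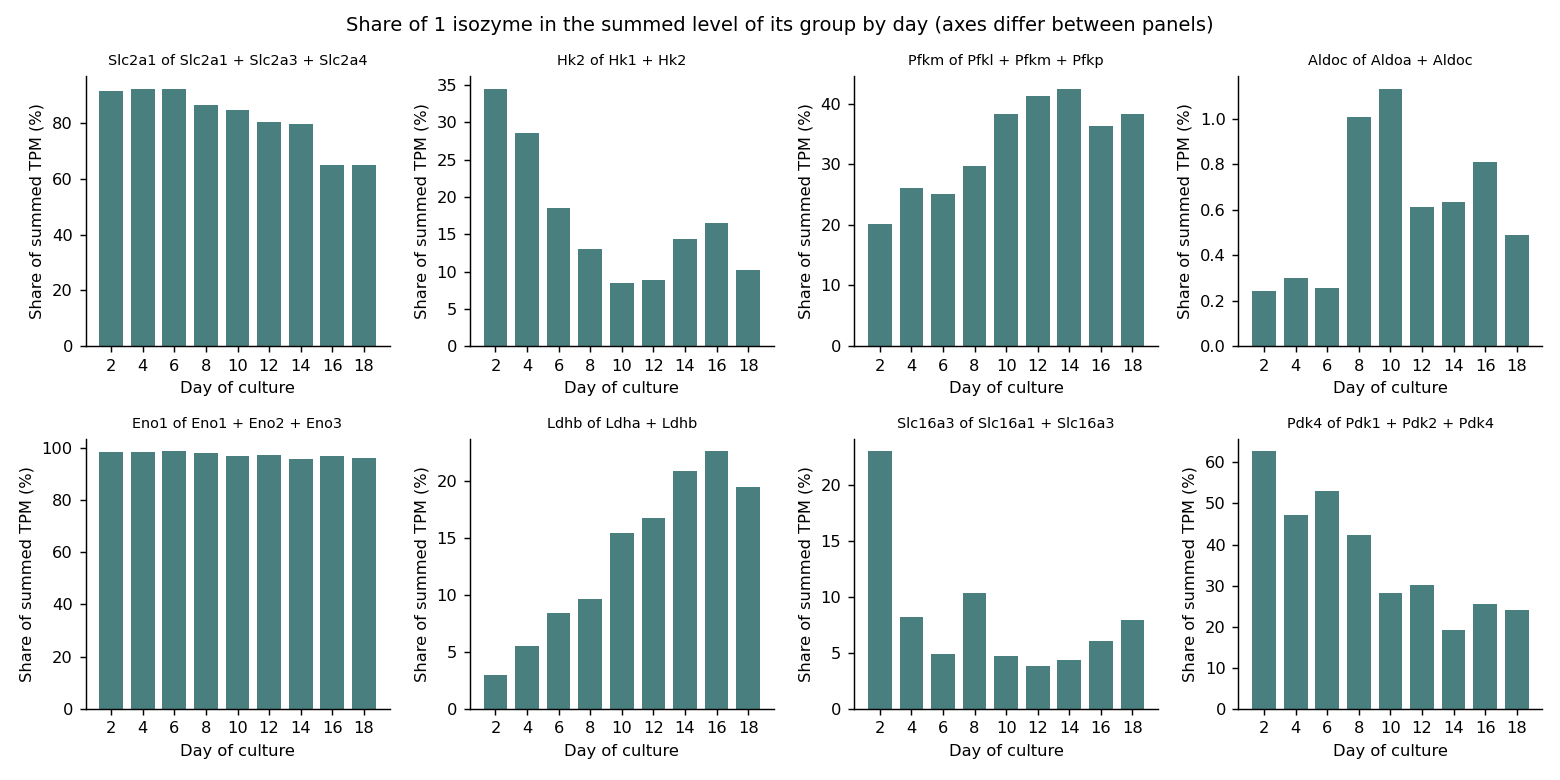
Share of 1 isozyme in the summed TPM of its group (percent) against the day of culture, for 8 groups, 1 bar per day, with axes that start at 0 and differ between panels. The share of Ldhb climbs from 2.98% to 22.6% on day 16, and the shares of Slc2a1 and Pdk4 decline to 64.8% on day 18 and 19.3% on day 14.

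The neighbouring routes of glucose were counted in the same way. Of 29 tested genes of a list of other glycolysis and glucose supply genes, 9 rose (31.0%) and 8 fell (27.6%), with a median change of -0.01. These shares were near those of all genes tested, 28.3% and 26.1%. Gpd1, which turns a glycolytic intermediate into glycerol 3-phosphate for fat synthesis, was at 0.65 TPM at first and 73.2 TPM at the end. It rose by 9.22 on the log2 scale (SE 1.04, edgeR adjusted p = 8.85e-05), and the part of adipocytes in this was not tested. Slc2a5, the fructose transporter GLUT5, fell by 4.37 (SE 0.78, edgeR adjusted p = 0.00094). Pdp1, the phosphatase that reverses the action of the Pdk kinases, was at 6.71, 33.6 and 46.8 TPM on days 2, 10 and 18, and rose by 3.03 (SE 0.40, edgeR adjusted p = 0.000179). The kinases Pdk1 and Pdk2 and the opposing phosphatase Pdp1 thus rose, while the kinase Pdk3 fell.

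Of 7 genes of the pentose phosphate pathway, the route from glucose 6-phosphate to ribose and NADPH, 4 (57.1%) fell and none rose, with a median change of -0.46. Of all genes tested 26.1% fell and 28.3% rose. Pgd fell by 1.21, Taldo1 by 0.84 and Rpe by 0.83 on the log2 scale (edgeR adjusted p = 0.00608, 0.0117 and 0.000816). Of 16 genes of the citric acid cycle 1 (6.25%) rose and 7 (43.75%) fell, with a median of -0.28, among them Idh3a by 1.19, Mdh2 by 0.90 and Cs by 0.69 (edgeR adjusted p = 0.00111, 0.00101 and 0.00252). Their summed level was 1540.4 TPM on day 2 and 1359 on day 18, a narrower range than that of the payoff phase.

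Of 22 tested hypoxia-inducible factors and targets outside glycolysis, 10 (45.5%) rose and 4 (18.2%) fell, with a median change of 0.41. Among all genes tested 28.3% rose and 26.1% fell. Ndrg1 rose by 4.54, Epas1, which encodes HIF-2 alpha, rose by 3.43, and Adm fell by 2.52 (SE 0.77, 0.27 and 0.44; edgeR adjusted p = 0.000703, 1.9e-05 and 0.00084). The promoter letters above refer to hypoxia-inducible factors in general and not to a single gene of them. Hif1a was at 47.5 and 66.9 TPM on the first and the last day and did not pass the line (edgeR adjusted p = 0.874), but it passed the spline (edgeR adjusted p = 0.0172), with 78.0 and 80.3 TPM on days 4 and 6. Messenger levels do not measure its protein. Of 10 tested genes of glycogen metabolism 5 (50%) rose and 3 (30%) fell, with Pygm, Pygl and Pygb, the 3 glycogen phosphorylases, all rising (log2 changes 6.07, 1.83 and 1.71). Of 4 tested genes of gluconeogenesis 3 (75%) rose, Pck1, which had 0 counts on the first day and 7.44 TPM on the last, and Pcx and G6pc3 by 1.01 and 0.54 on the log2 scale (SE 0.16 and 0.14).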

How the data were processed

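Bulk RNA sequencing of mouse calvarial cells at 9 time points, with 3 profiles each, was used. The authors mapped reads to NCBIm37 transcripts (Bowtie 0.12.9) and ran RSEM, which the submitters' processing notes give as version 1.2.8. The complementary DNA had been amplified (NuGEN Ovation) before TruSeq libraries were built. Each deposited profile gives 3 values a gene. Its estimated counts, as deposited, split reads that match several transcripts between them. Its TPM, as deposited, are relative transcript abundances scaled to a fixed total, and its FPKM, as deposited, divide fragments by effective transcript length and library total. No quartile scaling is in the deposited values.

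TPM were divided by the 75th percentile of each profile and averaged over 3 profiles. Counts of the 3 profiles, which carry 1 barcode, were summed and rounded. The 9 libraries were fitted with edgeR 4.0.16 in R 4.3.3 by its quasi-likelihood test, with upper-quartile factors, genes kept by filterByExpr (minimum count 10) and Benjamini-Hochberg adjustment over all genes tested. The fit was checked on simulated counts, which scattered less around the line and held far fewer changed genes than the data. That check does not measure the error rate of the fit in these data. Shares were tested by exact permutation over 362880 orders of the 9 days. Near copies were found from stretches of 50 bases shared between transcripts.

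All 32 genes are named, and of each other list at most the 3 largest changes among genes that passed the line and averaged at least 1 TPM. Other names were added where they touch a result. The 32 genes and the lists were chosen with earlier results of these data known. Alternatives were TMM factors, DESeq2 1.42.0, other filters and thresholds, the 27 profiles as samples without and with a replicate block, each replicate and each day left out, early against late days, the mitochondrial ribosomal RNA left out, pooling with copies, a spline of 2 degrees of freedom and TPM or FPKM as deposited. Pooling with near copies alone and the fit to days 2 to 10 were chosen after seeing the data.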

Additional observations from a re-analysis of the deposited data

Results flagged for a closer look

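Genes outside the 32 held a large signal that belongs to Gapdh sequence. Of the estimated counts assigned to Gapdh or to its 48 near copies, 47.5% lay in the copies, mostly in the pseudogene Gm12671, which is outside the lines fitted to the 32 genes except where counts were pooled. Gapdh fell with the copies left out and with them pooled.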

How the results depend on the processing

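The number of genes called as falling in the line was 10 to 18 under all alternatives, against 12, and the number called as rising was 8 to 12, against 9, except for days 2 to 10 alone (an alternative added after the data were seen), which gave 4. Rising and falling together, that fit called 4780 of all genes, against 8510. The spline called 20 to 29, against 23. Of 734 log2 changes of single genes 669 kept direction and call. The log2 change of Hk1, near 0 throughout, turned to -0.0196 with TMM factors, -0.00775 with DESeq2 and -0.0148 with all genes of at least 1 count, and ranged from -0.0157 to 0.0594 when a day or replicate was left out. Leaving one out gave -1.01 to 0.0885 for the log2 change of Eno3 and -0.29 to 0.0579 for the log2 change of Pdk4, with both signs changing without day 2, and the log2 change of Pdhb was -0.15 over days 2 to 10 alone. The Pfkm share had a rho of 0.75 without the first and last day, and 0.71 to 0.90 with one left out. Pooled with every gene that shares a stretch of 50 bases, Slc2a3 (-0.06) and Eno2 (0.15) lost their calls, and the log2 change of Ldha shrank to -0.35 with its call kept. In these pools the other genes held 99.7%, 70.8% and 87.8% of the counts but shared only 1.24%, 0.02% and 7.02% of the stretches of Slc2a3, Eno2 and Ldha. With the 27 profiles and a replicate block 12 genes rose and 18 fell, against 12 and 17 for the profiles without the block, but the replicate numbers are lanes of 1 library and do not pair samples (mean correlation of deviations 0.0081 within a number, -0.0041 between numbers, lowest -0.0593 within). The cause of these shifts was not tested.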
